A study of Homo sapiens with 10 samples.

Results

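Monomethylation of histone H3 at lysine 4 (H3K4me1) was compared between the breast cancer cell lines SKBR3 and BT474, both of which carry extra copies of ERBB2, the gene for the HER2 receptor. The comparison used the 4 H3K4me1 ChIP-seq libraries among the 10 samples of a study of HER2 binding to chromatin, with 2 replicates of SKBR3 and 2 of BT474. Each library was a list of islands, stretches of the genome that the study's peak caller found enriched, with the number of reads in each. The 328910 islands of the 4 libraries were merged into 113997 union regions, and the reads of each region were summed per library and scaled to RPM, reads per 1000000 of that library's total reads in islands. These totals lay between 15097245 and 18714089.

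SKBR3 cells were grown in McCoy's 5A medium and BT474 cells in RPMI-1640, each with serum, so the line and the medium cannot be told apart. The labels call the H3K4me1 cells asynchronous and list no agent for them, whereas the study's text describes the cells mapped for this mark as EGF-treated. Whichever holds, both lines carry the same label. Each line is a single established culture, and nothing states that its replicates were separate cultures, so the p-values measure only the spread between these samples. Reads in islands depend on how many copies of a locus a cell carries as well as on the mark per copy. These cannot be told apart here because no input DNA library entered the comparison, although the series lists an input sample for each line.

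H3K4me1 is laid down mainly by the methyltransferases KMT2C and KMT2D, and it marks enhancers, both active and poised, as well as the flanks of promoters. Enhancers differ between cell types more than promoters do, so the mark is often read as a map of the regulatory elements that a cell type has opened. In luminal breast cells the oestrogen receptor, with its cofactors FOXA1 and GATA3, binds many such elements. The receptor recognises the oestrogen response element, a palindrome of GGTCA and its reverse complement TGACC spaced by 3 bases. BT474 is known as an oestrogen receptor positive line and SKBR3 as a receptor negative one.

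The sequences shown here are perfect oestrogen response elements, GGTCA and TGACC with any 3 bases between them, inside regions that differed between the lines and that lay in, or nearest to the start of, a gene of the lists described further on. Each is printed from the plus strand of GRCh37 with the 13 matching bases in capitals and 8 bases on either side. They are given to show the letters of such elements in their regions. Not every match is printed, so the balance of the lines among those shown is not a result.
GREB1, chr2:11653028-11653056: gataatcaGGTCAAAATGACCttctttca
GREB1, chr2:11664718-11664746: tctcaaaaGGTCATCATGACCttattgtc
GREB1, chr2:11672652-11672680: ggcaactgGGTCATTCTGACCtagaagca
TFAP2C, chr20:55204502-55204530: agacgcctGGTCACCGTGACCccgatttt
TFAP2C, chr20:55491619-55491647: gtgaccttGGTCACGTTGACCaaacgccc
LRIG1, chr3:66466770-66466798: aaaagatgGGTCACAATGACCcctaaacc
SIAH2, chr3:150474423-150474451: tagttccaGGTCATGGTGACCtgtgaaaa
PIP, chr7:142827811-142827839: caaaggaaGGTCATTGTGACCctcacaag
TP63, chr3:189209810-189209838: gcaggaccGGTCAAGATGACCatgactaa

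The TP63 element lay in a region with more H3K4me1 in SKBR3, and the others printed lay in regions with more in BT474 or listed only there. The second GREB1 element lay in a region of 1.6 kb that had an island in both BT474 replicates and in neither SKBR3 replicate. The second TFAP2C element lay in a region of 277.8 kb whose nearest end was 90.3 kb from the TFAP2C start, and the TP63 element lay in a region 139 kb from the start of that gene.

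Most union regions were not listed in both lines. Of the 113997 union regions, 37219 (32.6%) had an island in all 4 libraries, 15369 only in both SKBR3 replicates and 29766 only in both BT474 replicates. With islands of at least 100 reads these last numbers were 11259 and 14308. The 37219 shared regions held most of the signal, 79.6% and 80.0% of the island reads of the SKBR3 replicates and 71.5% and 72.2% of those of the BT474 replicates. Regions seen in BT474 alone held 20.1% and 20.8% of its reads, and regions seen in SKBR3 alone 13.1% and 13.3%. Another 20869 regions were listed in 1 library only, 9440 in 3 libraries, and 1334 in 1 replicate of each line. Islands are listed only above the caller's threshold, and the study also describes a filter on places with high input signal in a line. A region without an island therefore has an unknown number of reads and not 0, and no fold change was computed for it. The part of the filter in the line-only regions was not tested.

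Among the 37219 shared regions, 12753 (34.3%) held more H3K4me1 in SKBR3 and 10214 (27.4%) more in BT474, by edgeR's quasi-likelihood test at a Benjamini-Hochberg adjusted p below 0.05. At least a 2-fold difference was reached by 7225 (19.4%) and 4919 (13.2%) of the regions, and at least a 4-fold difference by 1896 and 894. The excess of calls towards SKBR3 depended on the scaling. The calls numbered 11637 against 11408 under TMM scaling and 9773 against 9553 under DESeq2. The median absolute log2 difference between the lines was 0.67, against 0.17 from one SKBR3 replicate to the other and 0.15 for BT474. The replicates of the 2 lines did not overlap in 81.8% of these regions. Over the regions, which are not independent, Pearson's r of the log2 levels was 0.965 within SKBR3, 0.971 within BT474 and 0.612 to 0.623 between libraries of different lines.

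**Figure D1:**
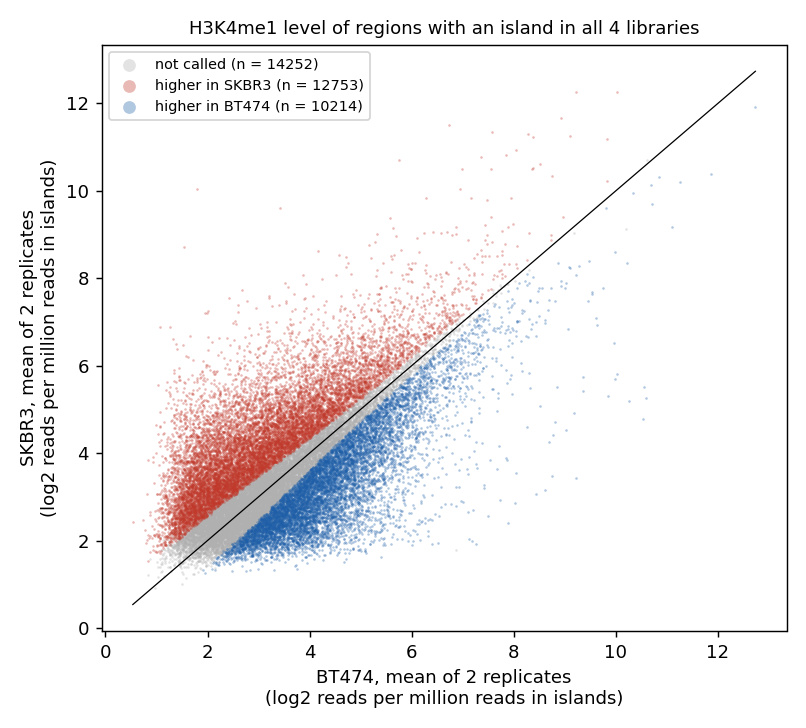
Mean H3K4me1 level of the 37219 regions with an island in all 4 libraries, in log2 RPM, with BT474 on the horizontal and SKBR3 on the vertical axis. Each point is a region and the line marks equality. The 12753 regions higher in SKBR3 and the 10214 higher in BT474 spread on either side of a band of 14252 regions that were not called, and the band is widest at low levels.

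The share of regions called rose with the reads behind them. Among distal regions, it was 38.5% in the lowest of 4 classes by reads (means of 31 to 110 per library) and 79.8% in the highest. The differences were also smaller in the lowest class, with a median absolute log2 difference of 0.51 against 0.78, and the part of depth in the share called was not tested.

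Regions at gene starts were shared between the lines more often than regions far from them. Within 1 kb of a protein-coding gene start, 49.1% of 26142 union regions had an island in all 4 libraries, against 27.8% of 87855 regions farther away and 23.5% of those over 50 kb away. Regions listed only in BT474 rose from 20.7% at gene starts to 33.8% over 50 kb away, while regions listed only in SKBR3 went from 7.40% to 14.7%. Shared promoter regions also held more reads, with a median of 203 against 172 for the distal ones. Union regions at gene starts were also longer, with a median of 3800 bp against 2800 bp for the distal ones. The median length was 5.6 kb for regions in all 4 libraries. It was 3.2 kb for those only in SKBR3 and 2.2 kb for those only in BT474. The part of depth and of length in the shares was not tested. Among shared regions the median absolute log2 difference was 0.65 at gene starts and 0.68 elsewhere.

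**Figure D2:**
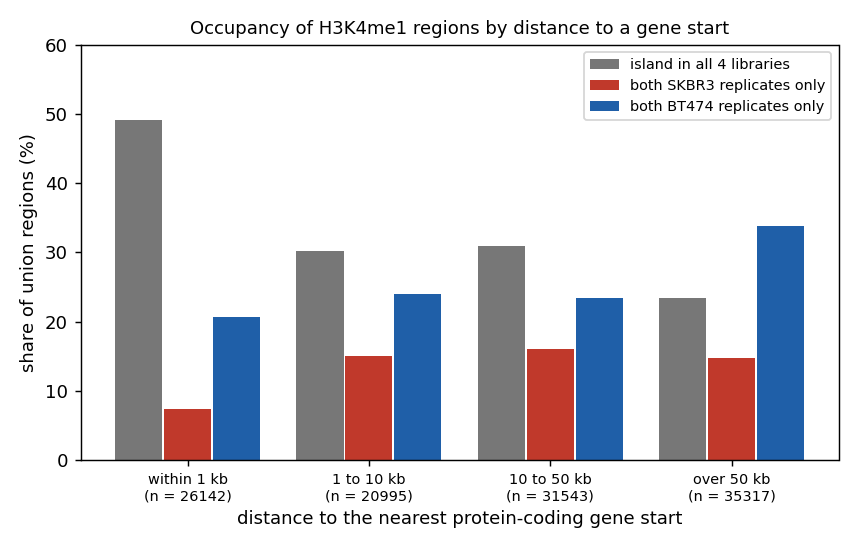
Share of union regions, in percent, with an island in all 4 libraries, in both SKBR3 replicates only and in both BT474 replicates only, for 4 classes of distance to the nearest protein-coding gene start (n is the number of union regions). The share in all 4 libraries falls from 49.1% within 1 kb to 23.5% over 50 kb, and the BT474-only share is the highest of the 3 over 50 kb away.

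Of the 8 regions with the largest test statistics in favour of SKBR3, 7 lay on chromosome 8. The first, of 72.2 kb, lay inside SNTB1, which encodes a syntrophin of the dystrophin complex. It covered an annotated transcript start within the gene and reached neither end of the gene. It held 1030 and 1061 RPM in the SKBR3 replicates against 3.90 and 3.11 in the BT474 replicates. That was a 295-fold difference (log2 8.20 ± 0.09 SE, edgeR adjusted p = 1.92e-08), and the replicates of a line differed by far less than the lines. A region of 210.2 kb that reached over MYC, the proto-oncogenic transcription factor, held 2902 and 2894 RPM in SKBR3 against 112 and 100 in BT474, 27.3-fold more. The others on chromosome 8 were nearest to TRAM1, TPD52, KLHL38, TRPS1 and HNF4G, with differences between 7.42-fold (KLHL38) and 144-fold (TRAM1). The one elsewhere covered the start of KSR1, a scaffold of the MAP kinase cascade, on chromosome 17, with 361 and 381 RPM in SKBR3 and 24.5 and 22.9 in BT474.

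The 8 regions in favour of BT474 lay on chromosomes 17, 9, 7 and 20. On chromosome 17 they were at ZNF652, SRCIN1, YPEL2, BCAS3 and ACSF2, and the largest difference was at ZNF652, where an intronic region of 49.8 kb held 9.47 and 8.49 RPM in SKBR3 and 386 and 401 in BT474. This was 43.8-fold more in BT474 (log2 -5.45 ± 0.08 SE, edgeR adjusted p = 2.48e-08). A region of 76.4 kb in LMX1B, a homeobox gene on chromosome 9, held 30.7 and 29.6 RPM in SKBR3 against 573 and 593 in BT474. The regions in HIPK2, a kinase gene on chromosome 7, and ITCH, a ubiquitin ligase gene on chromosome 20, differed by 15.6-fold and 5.80-fold.

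The regions with the most reads that were listed in one line alone had no fold change, for want of a value in the other line. In SKBR3 the largest, of 182.4 kb over the start of CYP24A1, the enzyme that breaks down vitamin D, held 19109 and 18707 reads. It was followed by regions at LACTB2, OSBPL3, ZFHX4 and GALNT17, on chromosomes 7 and 8, with 1852 to 2765 reads each. In BT474 the largest, of 76.6 kb over the start of HOXB13, a homeobox gene, held 10800 and 8182 reads, and those at RNF43, TBC1D3, ANKFN1 and XYLT2, all on chromosome 17, held 4307 to 9378. TBC1D3 belongs to a family of near-identical copies, so the reads of its region are uncertain.

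The level of the mark shifted over whole chromosomes and over blocks of them. On chromosome 18, 58.3% of 618 tested regions were higher in BT474 and 14.2% higher in SKBR3, with a median log2 difference of -0.65. Chromosomes 8 and 14 had medians of -0.37 and -0.25, and chromosomes 1, 20 and 10 medians of 0.36, 0.35 and 0.30. Replicates of a line lay close together on each of these chromosomes. Chromosome 8 was low in SKBR3 by its median region although it carried most of that line's leading regions, and it took 8.91% and 9.03% of the SKBR3 reads against 5.64% in each BT474 replicate.

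**Figure D3:**
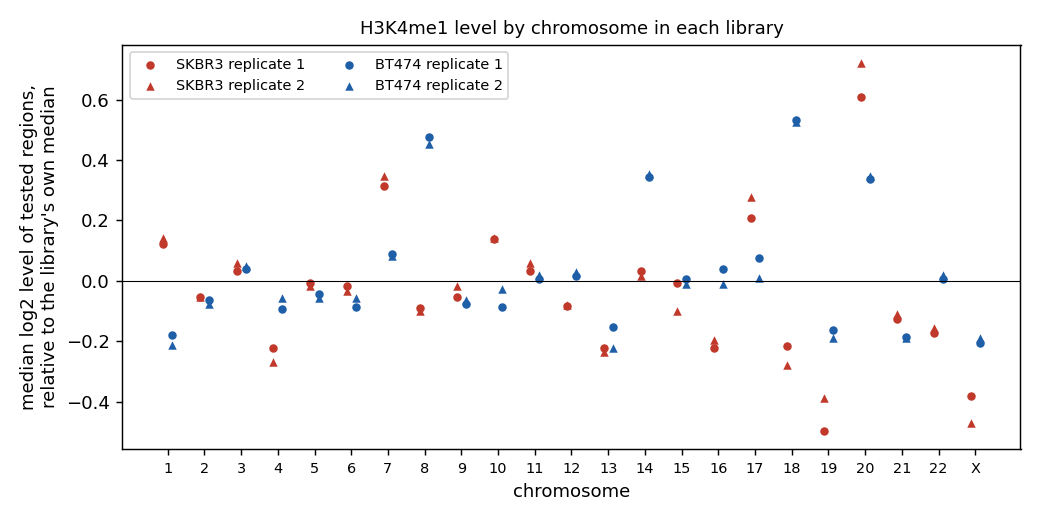
Median log2 level of the tested H3K4me1 regions of each chromosome, relative to the median of all tested regions of the same library, in the 4 libraries. Red symbols are SKBR3 and blue symbols BT474, with a circle for replicate 1 and a triangle for replicate 2. The lines are farthest apart on chromosomes 18 and 8, where BT474 is higher.

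Over blocks of 10 Mb, the median region differed between the lines by -2.79 to 2.13 on the log2 scale, across 289 blocks with at least 20 tested regions. The lowest block was at 50 to 60 Mb of chromosome 17 and the highest at 70 to 80 Mb of chromosome 8, and 26 blocks passed 1 in either direction, 8 towards SKBR3 and 18 towards BT474. Replicates of a line differed in a block by at most 0.43. To describe how far a region stood out from its surroundings, the fit was repeated with each library's block median removed, which left 12085 regions (32.5%) higher in SKBR3 and 9477 (25.5%) higher in BT474. At least a 2-fold difference after centring was reached by 17.5% and 10.7% of the tested regions. Centring removes a regional shift whether it comes from copy number or from the mark, so it gives neither one on its own.

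Under this centring the SNTB1 region was still 115-fold higher in SKBR3 and the MYC region 10.6-fold, while the YPEL2 and BCAS3 regions, on the shifted stretch of chromosome 17, went from 23.2-fold and 12.4-fold to 3.36-fold and 1.79-fold higher in BT474. ZNF652 kept a 34.1-fold difference. Regions that entered the leading 8 under centring were at HEY1, CCR7, ODAD4 and ZNF704 for SKBR3, and at B4GALNT2, TMEM92, SLITRK6, GREB1 and ARHGAP42 for BT474. The GREB1 region, of 24.2 kb inside the gene and around the first element printed above, held 4.60 and 3.98 RPM in SKBR3 and 78.1 and 80.7 in BT474, 18.4-fold more before and 20.5-fold more after centring.

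For genes, the reads of islands within the gene body and 10 kb on either side were summed, with the reads of an island shared out by the bases that overlapped. Of 20136 protein-coding genes, 13789 had reads in all 4 libraries and were tested, and of these 4123 (29.9%) held more H3K4me1 in SKBR3 and 5263 (38.2%) more in BT474 by the same test. After centring these numbers were 3857 (28.0%) and 4793 (34.8%), and 14.6% and 18.7% by at least 2-fold. Another 1836 genes had reads in both BT474 replicates and no SKBR3 island, and 510 the converse. The median difference over all tested genes was -0.16 on the log2 scale, and it was -0.04 under TMM scaling and -0.01 under DESeq2's size factors, so the differences of single genes are to be read against this shift. Reads outside islands are not listed, so a gene difference includes the stretches where only one line had an island, and neighbouring genes under one long island share its value.

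The genes with the largest test statistics were of mixed function. Towards SKBR3 they were BCAS1, GALNT17, SNTB1, ZNF704, ZHX2, LACTB2, EXT1 and ADAM19, and 5 of the 8 lay on chromosome 8. ADAM19, a membrane metalloprotease gene on chromosome 5, held 226 and 234 RPM in SKBR3 and 2.73 and 3.05 in BT474, the largest fold of the 8 (log2 6.32 ± 0.11 SE, edgeR adjusted p = 7.12e-07), and the difference was 5.66 after centring. Towards BT474 they were YPEL2, MLLT6, STXBP4, LMX1B, ARHGAP6, NPAS3, TADA2A and APPBP2. APPBP2, on chromosome 17, held 3.90 and 4.05 RPM in SKBR3 and 291 and 325 in BT474, and its difference went from -6.27 to -3.49 after centring. Genes named under centring only were STAT3, OSBPL3, DECR1 and TIMP2 for SKBR3, and SRCIN1, PGR, NDUFAF6, KHDRBS3, ACSF2, HIPK2, CDK14 and CA10 for BT474. STAT3, a transcription factor that cytokine and growth factor receptors activate, held 403 and 431 RPM in SKBR3 against 33.1 and 37.7 in BT474.

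**Figure D4:**
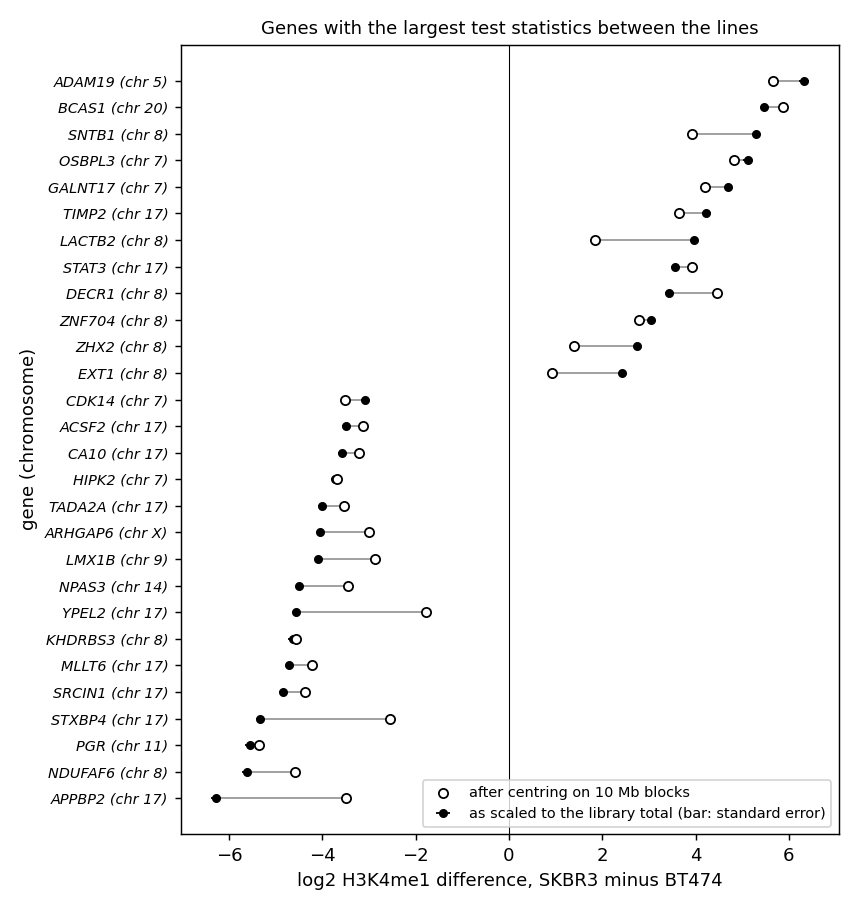
Log2 H3K4me1 difference, SKBR3 minus BT474, of the genes with the largest test statistics, with the chromosome of each. Filled points with a bar are the difference and its standard error as scaled to the library total, and open points are the difference after centring on 10 Mb blocks. APPBP2, STXBP4 and YPEL2 on chromosome 17 move most towards 0, and no gene changes sign.

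Targets of the oestrogen receptor held more H3K4me1 in BT474. Of 18 listed targets 17 had reads in all 4 libraries, and of these 13 were higher in BT474, 3 were higher in SKBR3 and 1 was not called, beside 38.2% and 29.9% of all tested genes, with a median log2 difference of -0.92 against -0.16 over all genes. PGR, the progesterone receptor gene, held 10.3 and 11.6 RPM in SKBR3 and 483 and 542 in BT474, a 46.9-fold difference (log2 -5.55 ± 0.10 SE, edgeR adjusted p = 7.57e-07). In BT474 its islands covered 88.2% and 87.6% of the gene and its flanks, and in SKBR3 3.66% and 3.49%. GREB1, a cofactor of the receptor, held 61.7 and 61.8 RPM in SKBR3 and 286 and 301 in BT474. Of the 15 union regions in its window, 7 were listed only in BT474, 2 were higher in BT474 and none was listed only in SKBR3 or higher there. SIAH2, a ubiquitin ligase gene, held 50.01 and 59.8 RPM in SKBR3 against 211 and 220 in BT474, and TFF3, a secreted trefoil peptide gene, 5.24 and 5.81 against 31.3 and 29.3.

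The other targets lay on both sides. TFF1, MYB, NRIP1, CCND1, STC2, AGR2, AGR3, ABAT and RET were higher in BT474 with log2 differences between -0.39 (AGR2) and -3.28 (RET). In the RET window, however, the 1 region with an island in all 4 libraries was higher in SKBR3. Of the 7 union regions in that window, 3 were listed only in BT474. Within 10 kb of the gene start AGR2 was called for SKBR3 (0.70, edgeR adjusted p = 0.0198) and NRIP1 was not called (-0.097, adjusted p = 0.654), and AGR2 had an adjusted p of 0.0534 by DESeq2. The RET value rested on SKBR3 replicates of 2.30 and 17.8 RPM, and its edgeR adjusted p of 0.014 became 0.159 without BT474 replicate 1, 0.135 without BT474 replicate 2 and 0.077 after centring. TFF1 had an adjusted p of 0.11 without BT474 replicate 1. CCND1, which encodes cyclin D1, had an adjusted p of 0.245 after centring. PDZK1, a scaffold protein gene, was higher in SKBR3, with 57.6 and 54.5 RPM against 7.0001 and 8.68, and IGFBP4 and CA12 were higher there by 1.12 and 0.46 on the log2 scale. Within 10 kb of the gene start neither was called, at 0.74 and -0.090 (edgeR adjusted p = 0.0536 and 0.575). XBP1 had a difference of -0.44 ± 0.17 (SE) and was not called. SLC39A6, a zinc transporter gene, had reads only in BT474, 75.5 and 82.6 RPM.

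Luminal transcription factors were called in both directions, more often for BT474. PGR was on this list too, and a gene on several lists counts under each. Of 17 tested of 18, 9 were higher in BT474 and 4 in SKBR3, beside 38.2% and 29.9% of all tested genes. The other 4 were not called, and the median was -0.44. After centring 11 were called for BT474 and 2 for SKBR3, beside 34.8% and 28.0% of all tested genes, and the median was again -0.44. ESR1, the oestrogen receptor gene itself, held 271 and 273 RPM in SKBR3 and 326 and 354 in BT474, a difference of -0.32 that was -1.06 after centring and had an adjusted p of 0.089 by DESeq2. Within its window 10 of 38 union regions were listed only in BT474 and 4 only in SKBR3. FOXA1, the pioneer factor, held 31.3 and 28.5 RPM against 62.6 and 69.4, and the difference of -1.14 became -0.09 after centring, with an adjusted p of 0.543. GATA3 held 16.5 and 11.04 against 50.02 and 48.4, but the 1 region of its window with an island in all 4 libraries was higher in SKBR3, and 3 of its 7 union regions were listed only in BT474. GRHL2, KLF5, TFAP2C and SPDEF were also higher in BT474. TFAP2B, of the AP-2 family, was higher in SKBR3, with 51.1 and 63.3 RPM against 11.01 and 14.04, as were TRPS1, ELF3 and TFAP2A, and the last 2 turned to lower values in SKBR3 after centring (-0.30 and -0.21). TBX3 had reads in 1 SKBR3 replicate only and 83.7 and 81.4 RPM in BT474.

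Androgen response and apocrine genes followed the same side as the targets, with a median of -0.61. Of 8 tested of 10, 7 were higher in BT474 and none in SKBR3, beside 38.2% and 29.9% of all tested genes. The differences were small, from -1.08 (FKBP5, a chaperone of steroid receptors) to -0.30 (ACSM1). CLCA2 and ACSM1 were not called under edgeR's test with TMM scaling (adjusted p = 0.0587 and 0.199) and DHRS2 had a difference of 0.04 after centring.

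Of the 4 receptors of the ERBB family, EGFR was higher in SKBR3 and the other 3 in BT474. EGFR held 521 and 504 RPM in SKBR3 and 133 and 126 in BT474, a 3.95-fold difference (log2 1.98 ± 0.06 SE, edgeR adjusted p = 2.84e-06). ERBB4 held 63.5 and 67.5 RPM in SKBR3 and 494 and 539 in BT474, and 40 of the 63 union regions in its window were listed only in BT474 and 1 only in SKBR3. Within 10 kb of its start alone, ERBB4 had a difference of -0.52 and an adjusted p of 0.0648 in edgeR's test. ERBB3 held 20.8 and 29.9 against 47.2 and 43.98. ERBB2 held 789 and 787 against 1204 and 1236, and its difference of -0.63 became -0.14 after centring, with an adjusted p of 0.0604.

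Ligands of these receptors differed gene by gene, and of 8 tested of 11, 3 were higher in SKBR3, 1 in BT474 and 4 were not called. Among all tested genes 29.9% were higher in SKBR3 and 38.2% in BT474. NRG2, a neuregulin, held 304 and 335 RPM in SKBR3 and 19.9 and 11.1 in BT474, a 20.3-fold difference, and 5 of the 9 union regions in its window were listed only in SKBR3. HBEGF, the heparin-binding ligand of EGFR, held 88.7 and 94.9 against 19.3 and 19.8, and EGF 90.6 and 101 against 47.99 and 44.05. TGFA, another ligand of EGFR, was higher in BT474, with 67.4 and 68.4 RPM against 23.9 and 23.2. NRG3 had no SKBR3 island, against 225 and 260 RPM in BT474.

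Of 13 feedback inhibitors of EGF signalling 12 were tested, with a median of 0.25. In SKBR3 6 were higher and in BT474 3, beside 29.9% and 38.2% of all tested genes, and 3 were not called. After centring 4 were called for SKBR3 and 5 for BT474, the median was -0.15, and DUSP5 and ERRFI1 had lost their call. SPRY4, a Sprouty gene, held 68.9 and 70.5 RPM in SKBR3 against 27.6 and 23.6 in BT474. The phosphatase genes DUSP6 and DUSP4 lay on the other side, with 9.91 and 16.2 against 55.9 and 50.7 for DUSP6 and 15.3 and 16.6 against 54.0 and 59.1 for DUSP4. SOCS2, the third on that side, lost its call without either BT474 replicate (adjusted p = 0.0652 and 0.128). ERRFI1 was higher in SKBR3 by 0.49 and had -0.18 after centring.

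**Figure D5:**
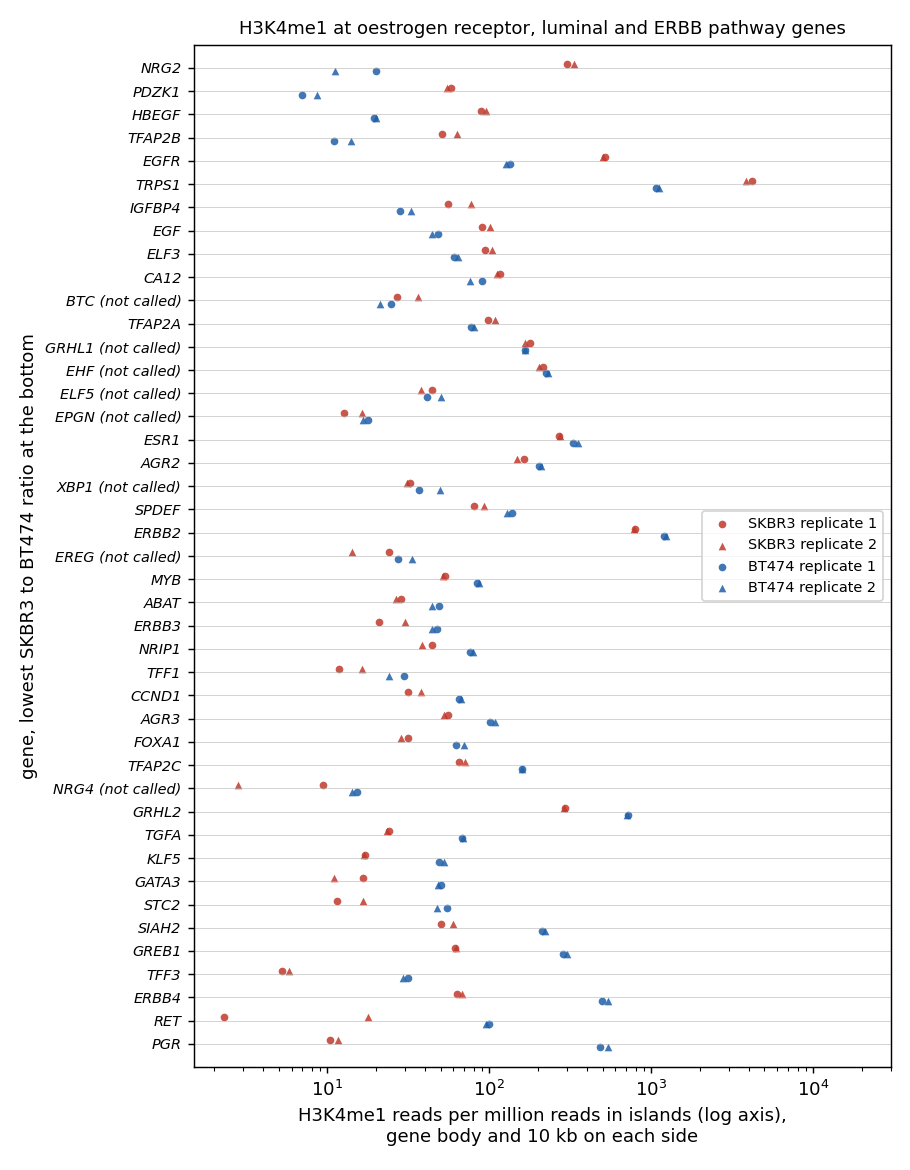
H3K4me1 of luminal transcription factor genes, oestrogen receptor targets, ERBB receptors and their ligands in the 4 libraries, in RPM over the gene body and 10 kb on each side (log axis), ordered by the ratio of the lines. Red is SKBR3 and blue BT474, with a circle for replicate 1 and a triangle for replicate 2. PGR, with 10.3 and 11.6 in SKBR3 and 483 and 542 in BT474, is at the bottom and NRG2, with 304 and 335 against 19.9 and 11.1, at the top, and levels of different genes are not per length.

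CDH1, which encodes E-cadherin of the adherens junction, had no SKBR3 island. In BT474 it held 215 and 227 RPM, in 7 union regions that were all listed only in BT474. The gap in SKBR3 ran over 0.421 Mb of chromosome 16 and held CDH1 and its neighbour CDH3, which encodes P-cadherin, and BT474 had 22 and 19 islands with 5545 and 4621 reads inside it. SKBR3 is known as a line without E-cadherin. Other junction genes were marked in both lines, and of 8 tested of 10, 4 were higher in SKBR3, 1 in BT474 and 3 were not called. Among all tested genes 29.9% were higher in SKBR3 and 38.2% in BT474. JUP, the plakoglobin gene, held 167 and 198 RPM in SKBR3 against 67.3 and 69.7, and CTNNA1, the alpha-catenin gene, 754 and 737 against 406 and 410. CTNND1, the one higher in BT474, had a difference of -0.42 that was 0.15 after centring.

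Longer stretches without an island in one line were looked for after these values had been seen, and those with the most islands of the other line are given. The longest was 6.81 Mb of chromosome 5 without an SKBR3 island, where BT474 had 151 and 141 islands, and it held the cadherin genes CDH12, CDH10 and CDH9. Stretches of 5.62 Mb on chromosome X, 4.68 Mb on chromosome 18, 3.20 Mb around NRG3 on chromosome 10 and 2.74 Mb on chromosome 8 were alike in this. The 8 such stretches without an SKBR3 island ran over 1.21 to 6.81 Mb and the 8 without a BT474 island over 0.308 to 1.77 Mb. Among the latter were 0.638 Mb of chromosome 3 with 41 and 39 SKBR3 islands, 0.655 Mb of chromosome 20 around RBL1 and SRC with 32 and 29, and 0.693 Mb of chromosome 11 around ETS1 and FLI1 with 20 and 20.

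Epithelial keratin and claudin genes were marked in both lines, which are labelled as breast cancer cells. Of 12 luminal epithelial markers 10 were tested, with a median of -0.04. In SKBR3 4 were higher and in BT474 4, beside 29.9% and 38.2% of all tested genes, and 2 were not called. KRT19 held 163 and 173 RPM in SKBR3 against 74.2 and 75.05, and KRT8 135 and 125 against 170 and 173. KRT7, KRT8 and KRT18, called for BT474, were not called by DESeq2 (adjusted p = 0.106, 0.0531 and 0.164). KRT18 was also not called by edgeR's test with TMM scaling (adjusted p = 0.0750). EPCAM, with a difference of -0.23 ± 0.11 (SE), and MUC1, with 0.15 ± 0.11, were not called. EPCAM was called for BT474 after centring (-0.82, edgeR adjusted p = 0.000762) and MUC1 for SKBR3 under TMM scaling (0.28, adjusted p = 0.0452). After centring the list had 2 calls for SKBR3 and 5 for BT474, and CLDN3 and CLDN4 had lost theirs. ESRP1 and ESRP2, splicing regulators of epithelial cells, had reads in 1 SKBR3 replicate each, at 3.65 and 4.03 RPM, against 148 and 145 and 54.2 and 47.9 in BT474.

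Of 18 basal and mesenchymal markers 15 were tested, with a median of 0.35. In SKBR3 10 were higher and in BT474 4, beside 29.9% and 38.2% of all tested genes, and 1 was not called. CAV1, the caveolin gene, held 220 and 213 RPM in SKBR3 and 10.5 and 6.62 in BT474, 25.02-fold more. The basal keratin gene KRT17 held 31.3 and 41.5 against 2.78 and 2.05, KRT14 had reads only in SKBR3, 40.2 and 46.8 RPM, and CD44, a hyaluronan receptor gene, held 132 and 125 against 40.5 and 41.3. Within 10 kb of the gene start CD44 had a difference of 0.78 and was not called (edgeR adjusted p = 0.0634). Other mesenchymal genes lay on the BT474 side. CDH2, the N-cadherin gene, held 2.30 and 1.502 RPM in SKBR3 and 29.5 and 23.8 in BT474, VIM, the vimentin gene, 3.07 and 3.13 against 15.02 and 13.6, and AXL 3.33 and 3.66 against 23.6 and 23.3. ZEB1 and SNAI2, repressors of epithelial genes, had reads only in BT474, whereas ZEB2 held 38.4 and 22.1 in SKBR3 against 6.36 and 6.03. Within the list FN1, SNAI1, TP63, TWIST1 and SOX10 lost their call without at least 1 library, and SNAI1 and TP63 had values of -0.10 and -0.09 after centring.

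Several markers of other cell types carried islands in both lines. Of 20 listed 12 were tested, with a median of 0.81. The calls were 8 for SKBR3 and 2 for BT474, beside 29.9% and 38.2% of all tested genes. CD3D had reads only in SKBR3, MS4A1, LUM, ALB and SYP only in BT474, and DCN, a fibroblast gene, had no island in any library. PTPRC, the pan-leukocyte gene CD45, held 207 and 180 RPM in SKBR3 against 82.7 and 84.4, and its difference within 10 kb of its start was -0.39 and not called. PDGFRB held 152 and 185 against 12.8 and 12.6, and COL1A1 3.45 and 4.70 against 66.3 and 67.6. All 4 libraries came from cultured cell lines, and any part of other cells in these values was not tested.

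The genes beside ERBB2 on chromosome 17, on a list that also holds ERBB2 itself, were mostly higher in BT474. These were 12 of 14 tested of 15, beside 38.2% of all tested genes, with a median of -0.60. After centring 4 of the 14 were called in BT474 and the median was -0.11. PPP1R1B, STARD3, TCAP and PNMT lay under the same island and shared a difference of -0.45, which was 0.04 after centring. MIEN1 and GRB7 likewise shared a difference of -0.70. Calls of neighbours that share long islands are not separate observations. CDK12 held 161 and 593 RPM in the SKBR3 replicates and 1155 and 1219 in BT474, and GSDMB 72.7 and 247 against 317 and 309. A long island that reached over CDK12 was listed in SKBR3 replicate 2 and not in replicate 1. Neither was called (edgeR adjusted p = 0.0978 and 0.238), and without SKBR3 replicate 1 the differences were -1.001 for CDK12 and -0.34 for GSDMB, and without replicate 2 they were -2.88 and -2.10, each with an adjusted p below the threshold. Across the genome, 46 regions with no island in 1 replicate had at least 500 reads in the other replicate of the line. On chromosomes 7, 8, 17 and 20, chosen after seeing the data, lay 44 of them, whereas 31138 of the 37219 shared regions lay on other chromosomes. The floor of 500 reads admits only regions with many reads. Why they are absent was not tested.

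Other genes often amplified in breast cancer went in both directions, 4 of 11 tested of 15 towards SKBR3 and 6 towards BT474. The shares over all tested genes were 29.9% and 38.2%. After centring 4 were called for SKBR3 and 3 for BT474, with the median going from -0.68 to -0.19, and CCND1, FGFR1 and ZNF217 had lost their call (edgeR adjusted p = 0.245, 0.0755 and 0.253). MYC held 345 and 368 RPM in SKBR3 against 43.0 and 38.2, 8.78-fold more and 1.77 on the log2 scale after centring. TOP2A, the topoisomerase gene, held 82.9 and 81.5 against 17.7 and 17.6. BCAS1 on chromosome 20 held 696 and 671 against 15.4 and 15.6, and of the 5 union regions in its window 4 were listed only in SKBR3 and the fifth was higher in BT474. PPM1D, a phosphatase gene on chromosome 17, held 10.9 and 7.90 against 311 and 224, and its difference went from -4.83 to -2.06 after centring. NCOA3, a coactivator of nuclear receptors on chromosome 20, held 524 and 484 against 1474 and 1797, and the difference went from -1.70 to -2.16. TBX2 and RPS6KB1 had reads only in BT474.

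The base sequence of distal regions differed between the classes. Perfect oestrogen response elements occurred 0.141 times per 100 kb in BT474-only regions and 0.138 times in shared regions higher in BT474, against 0.0766 and 0.0994 times in SKBR3-only regions and shared regions higher in SKBR3, and 0.45% of all distal union regions held one. In numbers, promoters included, 113 and 128 matches lay in the BT474 classes and 45 and 118 in the SKBR3 classes. The classes differed in the length of sequence searched, so these numbers are not to be compared directly. Per 100 kb the element occurred 0.114 times over all distal union regions and 0.0999 times in shared distal regions that were not called. The shares of distal regions that held one were closer, 0.374% and 0.283% of the BT474-only and SKBR3-only regions. Among shared distal regions they were 1.08% of those higher in BT474 and 0.858% of those higher in SKBR3. The FOXA motif TGTTTAC occurred 25.2 times per 100 kb in BT474-only regions and 17.3 times in SKBR3-only regions, and the GATA motif AGATAAG 20.7 and 14.5 times, against 20.4 and 16.8 times over all distal union regions. The shares of regions that held them were closer, 46.6% and 44.1% for FOXA (48.6% of all distal union regions) and 40.2% and 39.1% for GATA (42.1% of all), and the median BT474-only region was 2200 bp long against 3200 bp. The TEAD motif GGAATG went the other way, with 58.8 and 69.6 times, and the AP-1 motif TGANTCA was near level, with 38.6 and 41.0, and 79.2% and 66.9% of all distal union regions held them. Of the other 7 motifs searched, TFAP2 (GCCNNNGGC) occurred 17.3 and 23.1 times, RUNX (TGTGGTT) 20.9 and 19.8 times, STAT (TTCCNGGAA) 2.82 and 3.29 times and ETS (CCGGAAG) 2.08 and 3.00 times, in that order, and 42.7%, 46.7%, 10.6% and 9.13% of all distal union regions held them. GRHL (AACCGGTT), CEBP (TTGCGCAA) and the androgen or glucocorticoid response element (GNACA and TGTNC with 3 bases between) were held by 0.765%, 0.575% and 5.53%. BT474-only regions had a GC content of 39.7% and SKBR3-only regions 42.7% and its part in the FOXA and GATA counts was not tested. All motifs were counted on both strands, and a match of letters is not a bound site.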

How the data were processed

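The authors aligned the H3K4me1 ChIP-seq reads to GRCh37 and called islands with SICER (version 1.1 in the submitters' processing notes, which name BWA 0.5.9 where the study's text names another aligner). By the study's text, input chromatin of the lines served as background for the calls. It also describes removing reads in ENCODE blacklist regions and where the input of a line had high signal. The deposited files give whole read counts per island, with all island lengths multiples of 200 bp. The deposited HER2 ChIP-exo lists, whose score column was not used, served only for their positions.

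Island reads were summed over union regions, or over protein-coding genes of GENCODE release 44 (GRCh37) with 10 kb on either side. Counts were tested with edgeR (version 4.0.16) by its quasi-likelihood test with the total reads in islands as library size, on features with reads in all 4 libraries and with Benjamini-Hochberg adjustment at 0.05. Standard errors were taken from the test's F. Nearest starts, places in genes and sequences came from the same annotation and genome. For regions, a gene start was the start of any annotated transcript of a protein-coding gene. Named regions and genes were the 8 with the largest F per direction, at least 2-fold and 1 Mb apart, before and after centring on 10 Mb blocks, the 5 line-only regions with the most reads, and genes of 12 lists. Members, lists and rules were chosen with earlier results of these data known. Counts were simulated with the common dispersion, with 100 features changed 2-fold and 100 changed 4-fold, equally in both directions. The region fit of 37219 regions recovered 83% of 2-fold and 100% of 4-fold changes, and the gene fit of 13789 genes 82% and 100%. Unchanged features made up 5.18% of the region calls and 4.21% of the gene calls. The simulation held few changes and no regional shifts, so it does not test the scaling between the lines. Alternatives were TMM scaling, DESeq2 (version 1.42.0), a filter on low counts, absent islands as 0 reads, merging, 5 kb bins, another gene window, a replicate block and leaving out each library. Chi-square per degree of freedom between replicates was 6.72 in SKBR3 and 3.86 in BT474, so all 4 libraries were counted separately. PECAM1 and PVT1 of the lists were not found as protein-coding genes in the annotation. Sequence matches on chromosome 8, 1 other match and some list members are not reported here.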

Additional observations from a re-analysis of the deposited data

How the results depend on the processing

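The numbers of regions and genes called in each direction stayed within 1.5 times the reported ones under TMM scaling, DESeq2, centring, the filter on low counts, merging, 5 kb bins and the replicate block. They moved when absent islands were taken as 0 reads (26317 regions higher in SKBR3 and 37656 in BT474, of 113997 tested) and when genes were read within 10 kb of their start (2742 and 3490, of 10716 tested), where the number of features tested changed too. With islands of at least 100 reads, 11259 regions were listed only in SKBR3 and 14308 only in BT474. TMM scaling gave 11637 and 11408 regions and 4662 and 4719 genes, and DESeq2 9773 and 9553 regions and 4539 and 4432 genes. Under both scalings the directions were nearly level, unlike in the reported fit. Without chromosomes 7, 8, 17 and 20, an alternative chosen after seeing the data, 10333 and 8555 regions of 31138 were called, and 3252 and 4421 genes of 11381.

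Leaving out 1 library at a time gave 10742 to 11755 regions higher in SKBR3, 8228 to 9658 higher in BT474, 3377 to 4186 genes higher in SKBR3 and 4158 to 5589 higher in BT474, with the lone library assumed to vary like the other line. The replicate numbers pair nothing by the labels, and the deviations of same-numbered replicates had a correlation of -0.04. A fit with the replicate block called 12543 and 9969 regions and 3944 and 5111 genes.

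Among the genes that were called, differences turned sign under centring for CDH5 (0.44), CTNND1 (0.15), DHRS2 (0.035), ELF3 (-0.30), ERRFI1 (-0.18), PNMT, PPP1R1B, STARD3 and TCAP (0.035 each), SNAI1 (-0.10), TFAP2A (-0.21) and TP63 (-0.092). Within 10 kb of the gene start they turned for AGR2 (0.70, called for SKBR3), CA12 (-0.090) and PTPRC (-0.39), and for EPCAM (0.19) and XBP1 (0.067), which had not been called. The cause was not tested. Regions with few reads were called less often and also differed less, and copy number was not measured.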

Other observations

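The positions of HER2 ChIP-exo peaks, which come from 1 library per line and treatment and have no replicate check, were counted inside the H3K4me1 regions. Peaks of EGF-treated BT474 occurred 10.9 times per Mb in regions listed only in BT474 and 11.2 times in regions listed only in SKBR3. Peaks of EGF-treated SKBR3 occurred 0.793 and 1.43 times per Mb in the same classes, from 66 and 86 peaks, and those of vehicle-treated SKBR3 0.877 and 1.57 times, from 73 and 94 peaks. Shared regions that were not called had 1.14 per Mb of the EGF-treated and 0.826 of the vehicle-treated SKBR3 peaks. Regions neither shared by all 4 libraries nor listed in both replicates of a single line had 0.877 and 1.45. The difference between the lines in this respect was not tested.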
